A study of Saccharomyces cerevisiae with 25 samples.

Results

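Nitrogen catabolite repression genes are the budding yeast genes for the uptake and breakdown of poor nitrogen sources, together with the GATA transcription factors that control them and the enzymes of glutamate and glutamine. The 34 genes described here were chosen by name for these functions, out of 6648 named genes in the deposited table, and all 34 were found there. Levels came from 25 RNA-seq libraries of 1 Saccharomyces cerevisiae strain in the BY4741 background, which carried both pho84pr-YFP (a fluorescent reporter driven by the PHO84 promoter) and phm3 damp, a weakened allele of the polyphosphate polymerase gene VTC4. The groups were the 24 samples taken every 15 min from 15 to 360 min in no-phosphate medium and, as their reference, the 1 sample at 0 min in high phosphate. All samples shared both alleles, and a strain without the allele was not analysed here. Neither medium's nitrogen source was given in the sources used here.

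In yeast supplied with a preferred nitrogen source such as glutamine or ammonium, the TOR kinase pathway and Ure2 keep the GATA activators Gln3 and Gat1 in the cytoplasm. When the supply is poor, both activators enter the nucleus and bind GATA sites upstream of permease and degradation genes, while the GATA repressors Dal80 and Gzf3 compete for the same sites. Several pathways also need their own inducer and activator, such as Put3 for proline, Uga3 for γ-aminobutyrate (GABA) and Dal81 with Dal82 for allantoin.

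The upstream sequences of 4 genes that rose late in the course are shown here, those with the most GATA motifs and, among ties, the larger rise, because the same short motif recurs in each. They are the 300 bases before the annotated start codon, read 5′ to 3′ on the coding strand from the RefSeq sequence of build R64. Capitals mark GATAAG and its reverse complement CTTATC, searched on both strands, with overlapping matches counted.
DAL3 (chrIX:415618-415917, minus strand): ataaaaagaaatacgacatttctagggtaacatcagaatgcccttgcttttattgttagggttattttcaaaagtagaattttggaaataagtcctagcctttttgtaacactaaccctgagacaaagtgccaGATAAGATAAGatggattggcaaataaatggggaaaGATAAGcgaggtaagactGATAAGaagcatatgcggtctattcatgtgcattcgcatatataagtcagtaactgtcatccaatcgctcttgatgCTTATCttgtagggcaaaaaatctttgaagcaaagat
GAT1 (chrVI:95666-95965, plus strand): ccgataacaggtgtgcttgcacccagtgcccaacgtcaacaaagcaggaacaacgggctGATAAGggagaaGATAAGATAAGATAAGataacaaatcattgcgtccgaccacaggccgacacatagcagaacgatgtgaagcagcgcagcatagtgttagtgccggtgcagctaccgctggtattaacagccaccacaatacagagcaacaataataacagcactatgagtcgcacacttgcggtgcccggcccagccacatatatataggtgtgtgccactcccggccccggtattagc
DAL80 (chrXI:506598-506897, plus strand): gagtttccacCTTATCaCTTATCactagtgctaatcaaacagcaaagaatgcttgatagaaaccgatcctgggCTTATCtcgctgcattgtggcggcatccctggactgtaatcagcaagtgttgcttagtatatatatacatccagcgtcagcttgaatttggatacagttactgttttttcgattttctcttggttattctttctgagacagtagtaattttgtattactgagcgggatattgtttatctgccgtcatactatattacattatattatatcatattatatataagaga
GDH3 (chrI:31267-31566, plus strand): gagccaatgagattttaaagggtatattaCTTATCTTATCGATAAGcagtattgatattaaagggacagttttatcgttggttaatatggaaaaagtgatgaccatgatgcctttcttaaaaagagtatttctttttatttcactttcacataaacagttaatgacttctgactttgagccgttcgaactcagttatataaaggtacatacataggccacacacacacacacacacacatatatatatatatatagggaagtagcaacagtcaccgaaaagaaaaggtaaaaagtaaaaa

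DAL3 encodes ureidoglycolate lyase of allantoin breakdown and held 5 matches, the nearest beginning 37 bases before the start codon. DAL7, a malate synthase gene beside DAL3, held 3 between 167 and 209 bases away. The activator gene GAT1 held 4 between 219 and 241 bases away, and the repressor genes DAL80 and GZF3 held 3 each (those of DAL7 and GZF3 are not printed). GDH3, an isozyme of NADP-dependent glutamate dehydrogenase, also held 3, between 260 and 271 bases away. At least 3 matches were found in these 6 of the 34 (17.65%), against 0.2166% of 6001 annotated promoters. Among all 34 genes, 18 (52.94%) had at least 1 match in this window, against 880 of the 6001 (14.66%). With 500 bases, 19 of the 34 (55.88%) had at least 2 matches, against 3.633% of 6000 promoters. GATA sites are part of how such genes have been recognised, so these shares describe the list. Genes with no match in 500 bases included CAR1, CAR2, UGA1, UGA2, GLN1 and GDH2, several of which rose in comparisons below, and a match is not evidence of binding.

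Values are log2 RPM, the log2 of a gene's reads scaled to the total of the library, and differences are log2 differences with their standard error (SE). Recovered depth was 0.1466 to 0.7813 M reads from 285 to 360 min, 0.7481 to 2.971 M from 15 to 90 min and 4.275 M at 0 min. The lowest listed value of each library was taken as 10 reads, and genes below it are not listed. A low gene is thus missing from shallow libraries: the floor was 6.09 log2 RPM in the shallowest library, at 345 min. An unlisted value lies under its floor, so a mean over listed samples only is raised by it. The 24 samples were grouped into 4 windows of 6 consecutive times, which are not stated to be separate cultures. The p-values therefore measure the scatter between consecutive samples, which may be technical and includes real change within a window. A gene entered the test if it was listed at 0 min and in 4 or more samples of every window, and it was called at a limma adjusted p (Benjamini-Hochberg over all 4742 tested genes) under 0.05 with an absolute log2 difference of at least 1. This left 27 of the 34 genes. A low gene that did not rise could fail this filter in the shallow late libraries, so counts among tested genes can favour those that rose. The shares over all tested genes were counted under the same filter. The mating type a genes MFA1 and STE2 were listed in all 25 libraries (MFA1 at 9.38 to 11.19), and HIS3, LEU2 and MET17, which BY4741 lacks, in 0 of 25. URA3, also deleted in BY4741, was listed in 13 at 2.52 to 4.71, and the mating type alpha gene STE3 in 23 at 4.26 to 5.32. VTC4 was listed in all 25 and was at 6.40 at 0 min. From 285 to 360 min it was at 10.36 in the shallowest library, at 345 min, and at 7.51 to 8.06 in the others.

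**Figure D1:**
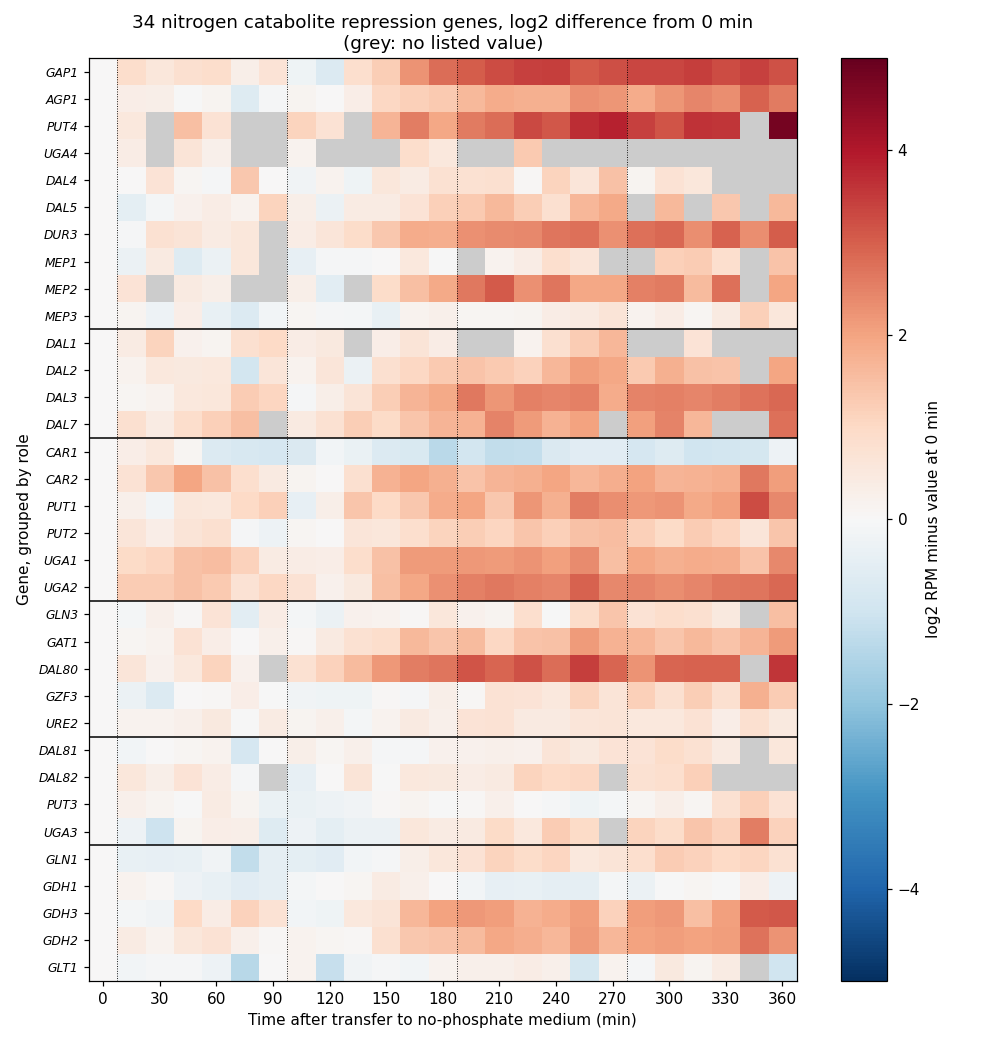
Log2 RPM of each of the 34 genes (rows, grouped by role) minus its value at 0 min, by time after transfer in min (columns). Red is higher than at 0 min, blue lower and grey not listed, and dotted lines separate the windows of 6 samples. GAP1, AGP1 and DAL80 lie at least 1 above their 0 min value in every listed sample from 150 min, UGA2 is red from 15 min and deeper from 165 min, and CAR1, GDH1 and GLT1 are pale or blue.

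The comparison of the last window with the first asks which of these genes were higher after hours without phosphate than soon after its removal. Of the 27 tested genes, 16 rose and 0 fell at 285 to 360 min relative to 15 to 90 min. Over all tested genes 12.9% were called higher and 3.4% lower. The median difference of the 27 was 1.29 and that of all genes 0.36, so the members' median lay 0.93 above that of all genes. Every sample was also centred on its median over the 2955 genes listed in all 25 libraries. After this centring 10 members were called higher and 0 lower. The split over all genes went to 236 higher and 228 lower, against 610 and 161 on the deposited scale. Under quantile normalization 9 members were called higher and 1 lower (CAR1), with 242 higher and 244 lower over all genes. The 9 genes called under all 3 scalings were GAP1, AGP1, DUR3, DAL3, PUT1, DAL80, GLN1, GDH3 and GDH2. On log2(RPM + 5), with unlisted values at 0, the calls of MEP1 (0.33), DAL2 (0.57) and DAL7 (0.37) were lost, all genes with unlisted late samples. MEP1 and DAL7 also lost theirs when every second sample was used. In bulk RNA, fewer cells of a type and less RNA per cell cannot be told apart.

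**Figure D2:**
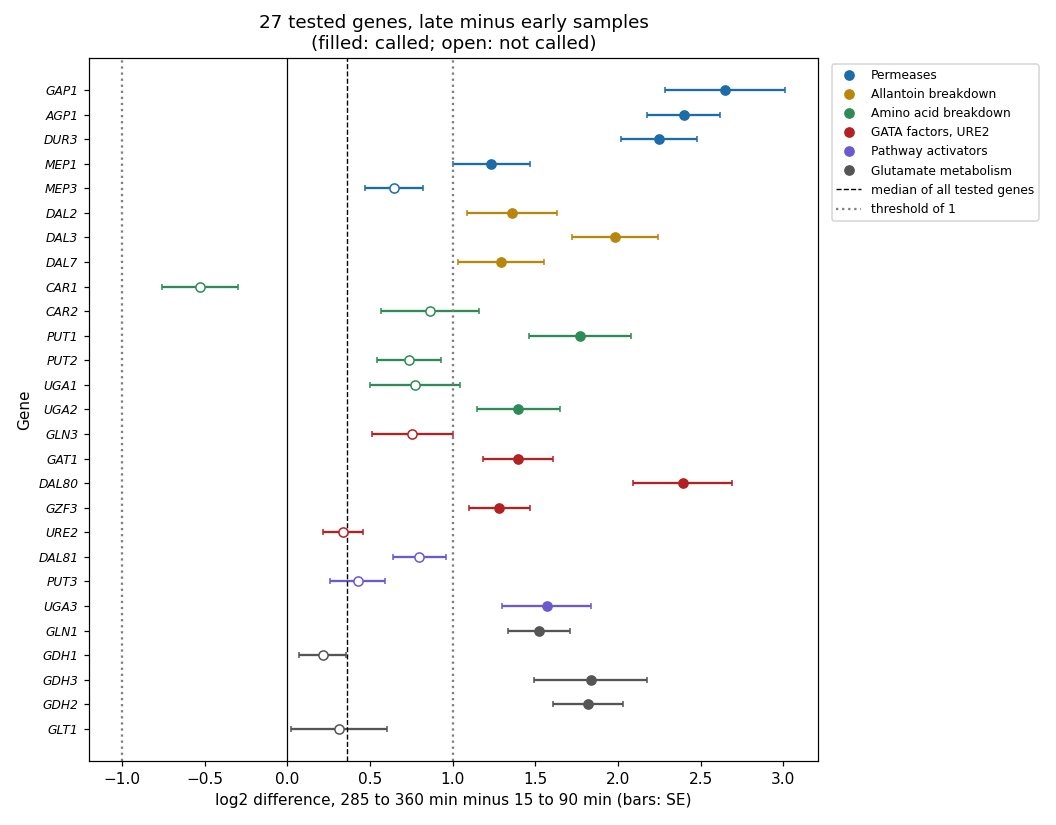
Log2 difference of each of the 27 tested genes, 285 to 360 min minus 15 to 90 min (n = 6 samples each, fewer where a value is missing), with its SE. The 16 filled points passed both thresholds, the dashed line is the median of all 4742 tested genes (0.36), and only CAR1 lies below 0.

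Permeases had the highest median difference of the 6 roles (2.25), and 4 of 5 tested rose. GAP1 (chromosome XI, 515063 to 516871, plus strand), the general amino acid permease, ranged over 9.02, 9.17 and 9.27 (lowest, median, highest) at 285 to 360 min, against 6.13, 6.57 and 6.71 at 15 to 90 min. The windows did not overlap, and the late samples lay close together. How many of all tested genes had windows without overlap was not counted, here or for the genes below. The same samples entered the test, so a lack of overlap in a called gene is not separate support. Of all tested genes, 78% had a positive difference. GAP1 rose 6.26-fold (2.65 ± 0.36 SE, 2.29 above the median gene, limma adjusted p = 2.82e-06). AGP1 (III, 76018 to 77919, minus strand), a broad amino acid permease, ranged over 8.31, 8.85 and 9.38 late, against 5.80, 6.50 and 6.78 early, and rose by 2.40 ± 0.22 (limma adjusted p = 2.04e-08). DUR3 (VIII, 72037 to 74244, minus strand), the urea transporter, ranged over 6.09, 6.58 and 6.82 late, against 3.71, 4.35 and 4.54 in the 5 early samples that list it. Its windows did not overlap either and it rose by 2.25 ± 0.23 (limma adjusted p = 8.80e-08), but only 79.17% of its 24 values came out as whole reads within a tolerance of 0.02 reads. Its reads may be shared with another gene, and its level is less certain.

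The ammonium permeases differed among themselves. MEP1 (VII, 731449 to 732927, minus strand) ranged over 4.82, 5.20 and 5.40 in 4 late samples, against 3.31, 3.69 and 4.53 in 5 early ones, and rose by 1.23 ± 0.23 (limma adjusted p = 0.000213). After centring its difference was 0.86, under the fold threshold. MEP3, the permease of lowest affinity, was at 5.79 to 6.86 late and 4.996 to 6.00 early, and its difference of 0.65 ± 0.18 stayed under the threshold (limma adjusted p = 0.00399). MEP2, which also acts as an ammonium sensor, was missing from 3 early samples and not tested in the main comparison. It was at 4.51 to 5.71 in 5 late samples, against 3.24 to 3.65 in 3 early ones.

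MEP2 was 1 of 7 genes with too few listed values, of which 5 are permeases. PUT4, the proline permease, was listed at 4.94, 5.37 and 6.61 (lowest, median, highest of 5) late, against 2.35, 2.52 and 3.31 in 3 early samples, the others lying under floors of at most 3.74. At 0 min it was at 1.81, and per length of coding sequence it was the lowest of the 34 genes there (1.863 RPM per kb). DAL5, the allantoate permease, was at 4.45 to 4.75 in 3 late samples, against 2.61 to 4.23 in 6 early ones. In these 3 genes every listed late value lay above every early value and floor. DAL5, however, was unlisted at 285 and 315 min under floors of 3.87 and 4.03, so there it lay below its highest early value. With a filter of at least 2 values per group, which tested 5079 genes and 32 of the 34 members, PUT4 (2.79 ± 0.39), MEP2 (1.81 ± 0.40) and DAL5 (1.32 ± 0.30) were called higher (limma adjusted p = 1.04e-05, 0.00104 and 0.00100). DAL4, the allantoin permease, was at 3.87 to 4.44 in 3 late samples, against 3.68 to 5.07 early, and was not called (0.12 ± 0.31, limma adjusted p = 0.772). UGA4, the GABA permease, was listed in 8 of 25 libraries, 0 of them late, and the late floors reached 6.09, so its late level was not detectable at this depth.

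**Figure D3:**
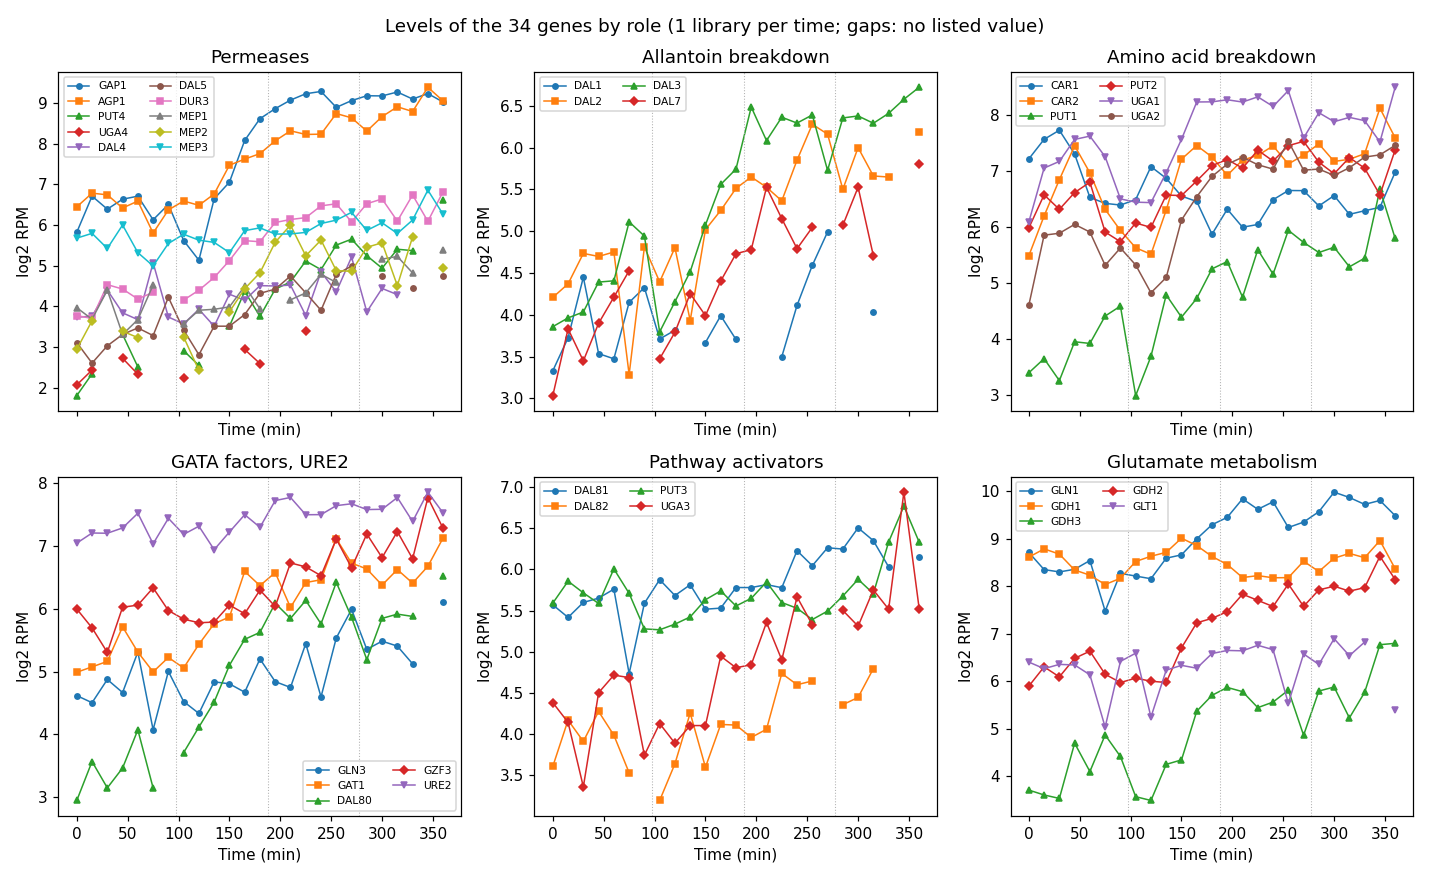
Log2 RPM of the 34 genes by time after transfer in min, in 6 panels by role, with 1 library per time and gaps where no value is listed. GAP1 and AGP1 end at 9.02 and 9.05, and GLN1 and GDH1 begin as the highest of the glutamate genes at 8.71 and 8.61.

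Allantoin breakdown genes rose where they could be tested, 3 of 3. DAL3 (IX, 415030 to 415617, minus strand) ranged over 6.29, 6.39 and 6.72 late, against 3.96, 4.40 and 5.11 early, and rose by 1.98 ± 0.26 (limma adjusted p = 1.83e-06). DAL2 (IX, 410807 to 411838, plus strand), allantoicase, ranged over 5.50, 5.66 and 6.19 in 5 late samples, against 3.29, 4.72 and 4.81 early, and rose by 1.36 ± 0.27 (limma adjusted p = 0.000245). DAL7 (IX, 413015 to 414679, minus strand), which uses the glyoxylate released from allantoin, ranged over 4.71, 5.30 and 5.80 in 4 late samples, against 3.45, 3.90 and 4.53 in 5 early ones. It rose by 1.29 ± 0.26 (limma adjusted p = 0.000382). For all 3 genes the listed windows did not overlap. DAL7, however, was unlisted at 330 min under a floor of 4.45, so that late sample lay below its highest early value of 4.53. After centring DAL2 (0.99) and DAL7 (0.92) lay just under the fold threshold. DAL1, allantoinase, was listed in 1 late sample at 4.03, against 3.47 to 4.45 early, and could not be tested. Its other late samples lay under floors of 3.68 to 6.09. A low gene that did not rise could thus fail the filter, so the count of 3 of 3 depends on it.

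These genes lie in a cluster of 6 neighbours spanning 9.358 kb, in the order DAL1, DAL4, DAL2, DCG1, DAL7 and DAL3. DCG1, a member of the cluster with no well described role, lies between DAL2 and DAL7 and was not called: its listed median was 4.52 in 4 late samples and 4.75 in 6 early ones (difference −0.31 ± 0.24, limma adjusted p = 0.296). Within the cluster 3 of 4 tested genes were called higher, and the other 2 had too few late values. Of these 2, DAL4 was not called under the filter of at least 2 values, and DAL1 was not tested there either.

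**Figure D4:**
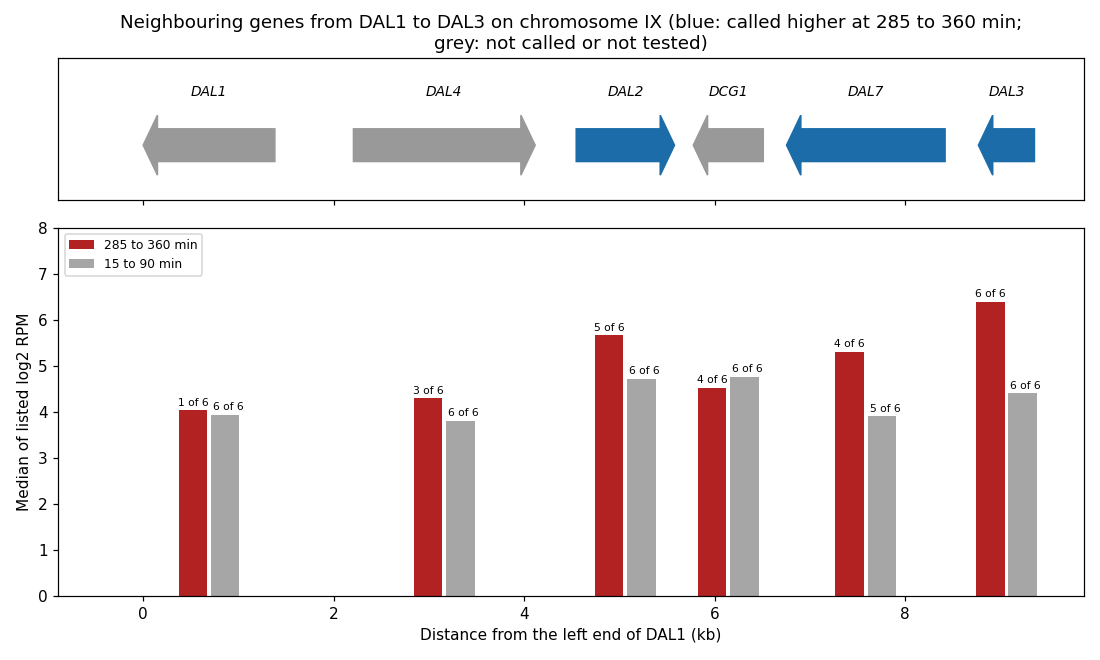
Map of the 6 neighbouring genes by distance in kb from the left end of DAL1, with arrows for strand, above the median of their listed log2 RPM at 285 to 360 min (red, left bar) and 15 to 90 min (grey, right bar), the number of listed samples standing on each bar. DAL2, DAL7 and DAL3 have red bars above 5 and grey bars below 5, and for DCG1 the red bar is the lower.

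Amino acid breakdown genes were divided, with 2 of 6 called. PUT1 (XII, 425186 to 426616, plus strand), proline oxidase, ranged over 5.29, 5.59 and 6.68 late, against 3.26, 3.94 and 4.59 early, and rose by 1.77 ± 0.31 (limma adjusted p = 5.15e-05). The windows did not overlap, and the highest value was that of the shallow 345 min library. UGA2 (II, 247010 to 248503, plus strand), succinate semialdehyde dehydrogenase of GABA breakdown, ranged over 6.93, 7.16 and 7.46 late, against 5.32, 5.87 and 6.05 early, and rose by 1.40 ± 0.25 (limma adjusted p = 7.14e-05). PUT2, which acts after PUT1, differed by 0.73 ± 0.19, UGA1, the GABA transaminase, by 0.77 ± 0.27 and CAR2, ornithine transaminase, by 0.86 ± 0.29, all under the fold threshold (limma adjusted p = 0.00312, 0.0218 and 0.0177). CAR1, arginase, which acts just before CAR2, was the only tested member with a negative difference (−0.53 ± 0.23, limma adjusted p = 0.0599), with 6.23 to 6.98 late and 6.40 to 7.73 early. Under quantile normalization CAR1 was called lower at −1.09. The arginine pair thus differed in sign, and the difference between them was not tested.

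Among the GATA factors and Ure2, 3 of 5 rose. DAL80 (XI, 506898 to 507707, plus strand) ranged over 5.19, 5.88 and 6.53 in 5 late samples, against 3.15, 3.47 and 4.07 in 5 early ones, and rose by 2.39 ± 0.30 (limma adjusted p = 1.59e-06). GAT1 (VI, 95966 to 97498, plus strand) ranged over 6.38, 6.63 and 7.13 late, against 4.996, 5.19 and 5.71 early, and rose by 1.39 ± 0.21 (limma adjusted p = 1.12e-05), and 64% of its 25 values came out as whole reads at the same tolerance, so its level is less certain. GZF3 (X, 209922 to 211577, minus strand) ranged over 6.80, 7.21 and 7.77 late, against 5.31, 6.00 and 6.33 early, and rose by 1.28 ± 0.18 (limma adjusted p = 5.28e-06). Both repressor genes and 1 of the activator genes thus passed, and after centring GAT1 (0.99) and GZF3 (0.88) lay under the fold threshold. The activator gene GLN3 differed by 0.76 ± 0.24 (limma adjusted p = 0.0124) and URE2 by 0.34 ± 0.12 (limma adjusted p = 0.0217), close to the median gene. URE2 turned to −0.07 after centring and after quantile normalization.

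Of the pathway activators 1 of 3 tested rose. UGA3 (IV, 156318 to 157904, plus strand) ranged over 5.31, 5.52 and 6.94 late, against 3.36, 4.32 and 4.71 early, and rose by 1.57 ± 0.27 (limma adjusted p = 4.42e-05). DAL81 differed by 0.80 ± 0.16 and PUT3 by 0.42 ± 0.17 (limma adjusted p = 0.000273 and 0.0352), and DAL82 was listed in 3 late samples at 4.35 to 4.79, against 3.53 to 4.27 in 5 early ones. UGA3 and GLT1 are transcribed away from each other across 677 bases, and GLT1 was not called.

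In glutamate and glutamine metabolism 3 of 5 rose. GLN1 (XVI, 642208 to 643320, plus strand), glutamine synthetase, ranged over 9.48, 9.76 and 9.98 late, against 7.48, 8.32 and 8.54 early, and rose by 1.52 ± 0.19 (limma adjusted p = 8.82e-07). GDH2 (IV, 70640 to 73918, minus strand), the NAD-dependent glutamate dehydrogenase that releases ammonium, ranged over 7.90, 7.98 and 8.63 late, against 5.97, 6.23 and 6.63 early, and rose by 1.82 ± 0.21 (limma adjusted p = 4.18e-07). GDH3 (I, 31567 to 32940, plus strand) ranged over 5.23, 5.84 and 6.80 late, against 3.54, 4.26 and 4.87 early, and rose by 1.83 ± 0.34 (limma adjusted p = 0.000103). In all 3 the windows did not overlap. GDH1, the other NADP-dependent isozyme, was at 8.31 to 8.96 late and 8.04 to 8.78 early (0.21 ± 0.14, limma adjusted p = 0.219) and turned to −0.19 after centring. GLT1, glutamate synthase, was at 5.40 to 6.90 in 5 late samples and 5.04 to 6.42 early (0.31 ± 0.29, limma adjusted p = 0.395), and turned negative after centring (−0.06), after quantile normalization (−0.09) and on log2(RPM + 5) (−0.40).

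GLT1 moved with 1 feature of the libraries. In 5 libraries (75, 120, 255, 345 and 360 min) ADA2, a subunit of the SAGA coactivator, was at 7.83 to 8.92, against 10.46 to 12.02 in the other 20. GLT1 was at 5.04 to 5.54 in the 4 of them that list it and at 6.14 to 6.90 in the other 20. What sets these libraries apart was not tested. Without them 16 members were called higher at 285 to 360 min, and likewise 16 without the 3 libraries under 0.5 M reads.

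Against the 0 min sample the same genes stood higher late, and none was called in the first 90 min. Of the 27, 19 were called higher and 0 lower at 285 to 360 min, against 20.1% higher and 4.05% lower over all genes, and the member median was 1.59 against 0.47. After centring 13 members were called, with 394 higher and 352 lower over all genes in place of 952 and 192, and under quantile normalization 11, with 327 and 297. Centring removed the calls of MEP1, DAL2, PUT2, GZF3, UGA3 and GLN1. The 19 were the 16 described above together with CAR2 (1.998 ± 0.55), PUT2 (1.08 ± 0.36) and UGA1 (1.88 ± 0.51; limma adjusted p = 0.00806, 0.0274 and 0.00736). CAR2 ranged over 7.18, 7.40 and 8.13 late, against 5.49 at 0 min. PUT2 ranged over 6.58, 7.11 and 7.38, against 5.99, and UGA1 over 7.53, 7.93 and 8.50, against 6.09. In these 3 genes every late sample lay above the 0 min sample. GAP1 was 10.1-fold higher than its 0 min value of 5.82 (3.34 ± 0.68, limma adjusted p = 0.00111), DAL80 7.59-fold higher than 2.95 (2.92 ± 0.52) and DUR3 6.54-fold higher than 3.78 (2.71 ± 0.41). On log2(RPM + 5) the calls of DAL80 (1.71, limma adjusted p = 0.2425), DAL2 (0.77), DAL7 (0.69), UGA3 (1.20) and MEP1 (−0.03) were lost. GLN1 just passed (1.03 ± 0.35, limma adjusted p = 0.0283) and lost its call without the 300 min library (0.98). The single 0 min library has no replicate, is assumed to vary like the others and enters every one of these values, and the late samples are those of the comparison above.

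At 15 to 90 min against 0 min, 0 of 27 members were called, against 0.127% of all genes higher and 0.0211% lower. In limma 4 members had an unadjusted p under 0.05, as did 210 of all genes, and member adjusted p-values were 0.920 or above. These 4 were UGA2 (1.17 ± 0.47), CAR2 (1.13 ± 0.55), UGA1 (1.11 ± 0.51) and DAL7 (0.95 ± 0.43). For UGA2 all 6 early samples (5.32, 5.87 and 6.05 as lowest, median and highest) lay above its 0 min value of 4.60. With 1 sample at 0 min, a difference of this size did not pass.

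In the order of levels per kb of coding sequence, GLN1 was highest both late (median 780.5 RPM per kb) and at 0 min (376.2). GAP1 ranked 2 of 34 late, at 319.5, and 11 at 0 min, at 31.3. GDH1 ranked 3 late at 283.3 and 2 at 0 min at 286.4, and its late range of 232.3 to 364.9 overlapped that of GAP1 (287.4 to 340.9), so those neighbours are not separated. AGP1 ranked 4 late at 242.4 and 6 at 0 min at 45.88, and its late range of 166.7 to 351.5 also overlapped both. CAR1 ranked 11 late at 82.42 and 3 at 0 min at 149.

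The finer course asks whether the genes changed in steps. The amino acid breakdown genes CAR2, UGA1 and UGA2 were high at 30 to 60 min, low at 105 to 135 min and high again from 150 min. Only CAR2 passed the test of the middle step: it was at 5.63, 5.52 and 6.31 at 105, 120 and 135 min, against 6.85, 7.46 and 6.97 at 30, 45 and 60 min (−1.27 ± 0.24, limma adjusted p = 0.00547). The 3 later values all lay below the 3 earlier ones. Of 27 members 1 was lower and 0 higher, against 1.54% lower and 0.105% higher over all genes. UGA2, at 5.32, 4.83 and 5.10 against 5.89, 6.05 and 5.91, fell short of the fold threshold (−0.87 ± 0.19, limma adjusted p = 0.0128). UGA1, at 6.45, 6.44 and 6.98 against 7.18, 7.57 and 7.63, did not pass (−0.84 ± 0.25, limma adjusted p = 0.0589). The permease gene GAP1 also dipped, at 5.62, 5.14 and 6.65 against 6.39, 6.64 and 6.71, and did not pass (−0.78 ± 0.26, limma adjusted p = 0.0944). The CAR2 call was lost without the 45 min library (−1.09, limma adjusted p = 0.0516) or the 120 min library (−1.12, limma adjusted p = 0.0568), and without the 135 min library GAP1 (−1.20) and UGA1 (−1.01) were called as well.

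A rise followed in the next step, whose comparison shares the samples at 105 to 135 min with the one above. From 165 to 195 min, 13 of 27 members were higher and 0 lower than at 105 to 135 min, against 11.5% higher and 7.82% lower over all genes, with a member median of 0.93 and a median of all genes of 0.31. After centring 10 were called, with 319 higher and 469 lower over all genes in place of 545 and 371, and under quantile normalization 8, with 300 and 405. AGP1, DAL2 and GAT1 lost their calls under both scalings, and DUR3 and PUT1 under quantile normalization. GAP1 was at 8.08, 8.61 and 8.86 at 165, 180 and 195 min, against 5.62, 5.14 and 6.65 at 105, 120 and 135 min (2.72 ± 0.26, limma adjusted p = 2.97e-07). UGA1 was at 8.24, 8.24 and 8.28, against 6.45, 6.44 and 6.98 (1.63 ± 0.25, limma adjusted p = 2.61e-05), and UGA2 at 6.54, 6.91 and 7.13, against 5.32, 4.83 and 5.10 (1.78 ± 0.19, limma adjusted p = 7.11e-07). In these 3 genes the groups did not overlap. Here and in the genes below, the same samples gave the calls, so this is not separate support. The share without overlap over all tested genes was not counted.

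Among transporters, DUR3 was at 5.62, 5.59 and 6.06 from 165 to 195 min, against 4.16, 4.40 and 4.71 from 105 to 135 min (1.33 ± 0.22, limma adjusted p = 6.72e-05). AGP1 was at 7.62, 7.76 and 8.07, against 6.59, 6.49 and 6.76 (1.20 ± 0.23, limma adjusted p = 0.000256). Both had all later samples above the earlier ones. Of the allantoin genes, DAL3 was at 5.56, 5.74 and 6.49, against 3.80, 4.16 and 4.52 (1.77 ± 0.23, limma adjusted p = 5.05e-06). DAL2 was at 5.25, 5.51 and 5.65, against 4.39, 4.80 and 3.93 (1.09 ± 0.31, limma adjusted p = 0.00775). Its call was lost without the 135 min library (0.87). CAR2 was back at 7.46, 7.26 and 6.93, against 5.63, 5.52 and 6.31 (1.40 ± 0.24, limma adjusted p = 0.000104). PUT1 was at 4.73, 5.26 and 5.39, against 2.99, 3.69 and 4.79 (1.30 ± 0.38, limma adjusted p = 0.00949). The PUT1 groups overlapped, and the call was lost without the 105 min library (0.88).

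The regulators and glutamate enzymes that passed in this step did so without overlap. DAL80 was at 5.51, 5.63 and 6.09, against 3.71, 4.12 and 4.52 (1.63 ± 0.29, limma adjusted p = 0.000212), and its call was lost on log2(RPM + 5) (1.39, limma adjusted p = 0.189). GAT1 was at 6.60, 6.37 and 6.58, against 5.06, 5.44 and 5.76 (1.10 ± 0.24, limma adjusted p = 0.00114), a call lost without the 105 min library (0.91). Repressor and activator genes thus both passed. GDH3 was at 5.37, 5.70 and 5.87, against 3.57, 3.49 and 4.25 (1.88 ± 0.36, limma adjusted p = 0.000282). GDH2 was at 7.23, 7.32 and 7.47, against 6.07, 6.00 and 5.98 (1.33 ± 0.19, limma adjusted p = 1.59e-05). Of these 13 genes, 11 were among the 16 called late against early. MEP1, DAL7, GZF3, UGA3 and GLN1 were called only in the window comparison and CAR2 and UGA1 only in this step, and no test was made of these differences.

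**Figure D5:**
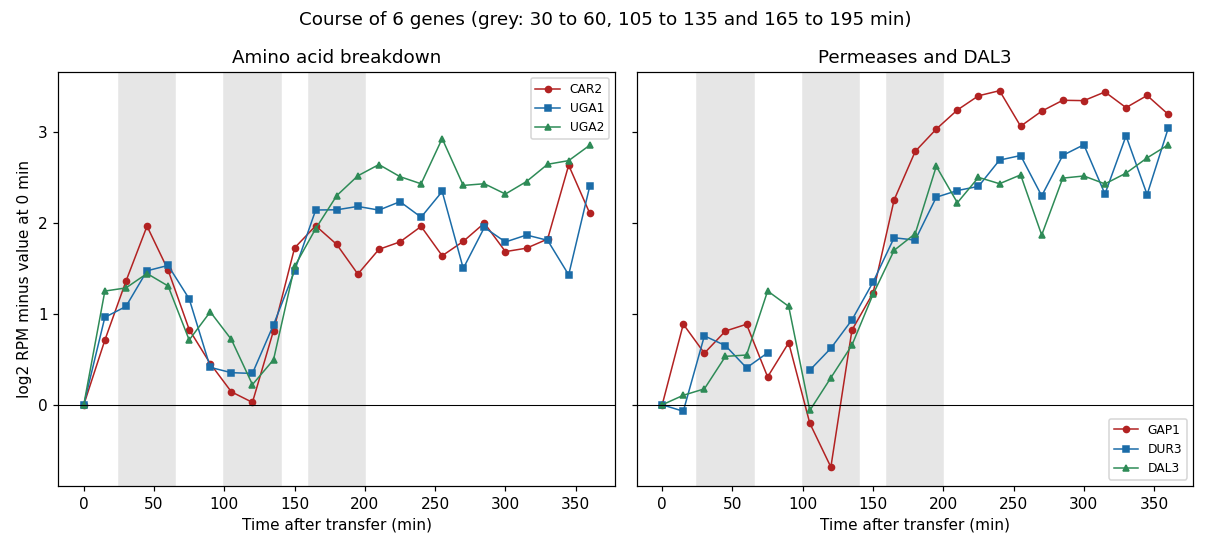
Log2 RPM minus the 0 min value for 6 genes by time in min, with the 3 sampled steps (30 to 60, 105 to 135 and 165 to 195 min) shaded. CAR2, UGA1 and UGA2 have a first peak near 45 to 60 min, lie near 0 at 120 min and are high again from 150 min. DUR3 and DAL3 climb mainly after 135 min. GAP1 also stands above 0 from 15 to 90 min, lies below 0 at 105 and 120 min and then climbs.

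Times differed between genes. DAL80 stayed above all of its values up to 90 min from 120 min on, DUR3 and GAT1 from 135 min, and GAP1, AGP1, PUT4, MEP2, DAL2, UGA2 and GDH2 from 150 min. DAL3, PUT1, UGA3 and GLN1 followed at 165 min, DAL7 and DAL81 at 180 min, GZF3 at 210 min and MEP1 at 240 min. GDH3 stayed above from 285 min, but from 165 min without the 270 min library, where it was at 4.865 against an early maximum of 4.871. PUT1 did so from 135 min without the 150 min library. Some margins over the early maximum were small: DAL80 at 120 min (4.12 against 4.07), GAT1 at 135 min (5.76 against 5.71) and DAL81 at 180 min (5.78 against 5.76). These times come from 1 library each and a resolution of 15 min, and a missing value was passed over. The order of the genes was not tested. DAL7 was unlisted at 330 min under a floor of 4.45, and MEP1 at 285 min under 3.87. Both thus lay below their early maximum of 4.53 there, and their times hold for listed samples only. PUT4 at 150 min (3.52) lay under the floor of its unlisted 90 min sample (3.74). In a test for any change over the 24 no-phosphate samples (spline of time with 4 degrees of freedom), 22 of 27 members varied with a fitted range of at least 1, against 39.4% of all genes. Of the other 5, MEP3, URE2 and DAL81 passed the p threshold with a smaller range, and GDH1 and GLT1 did not pass it. CAR1 was among the 22 (fitted range 1.24, limma adjusted p = 0.00223).

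Other genes around the pathway gave mixed counts, to be read against the 12.9% of all genes called higher late against early. Of 22 further nitrogen catabolite genes 16 were tested, and 7 (43.8%) were higher and 0 lower late against early, 3 after centring and 3 under quantile normalization. These calls included UGX2, of unknown function (2.11 ± 0.34), RNY1, a vacuolar ribonuclease (1.83 ± 0.30), PRB1, vacuolar proteinase B (1.75 ± 0.33), DUR1,2, urea amidolyase (1.38 ± 0.29), and ECM38, which degrades glutathione (1.09 ± 0.28). Of 5 tested genes that control permease traffic, NPR1, a kinase that stabilises Gap1 and Mep2, was called (1.07 ± 0.21, limma adjusted p = 0.000238), and 0 were after centring. Of 14 TOR pathway genes 2 (14.3%) were higher, TIP41 (1.43 ± 0.23) and GTR1 (1.35 ± 0.14), 1 after centring and 0 under quantile normalization. Of 14 genes of the SPS amino acid sensor and its permeases 2 (14.3%) were higher, STP2 (1.14 ± 0.20) and PTR3 (1.12 ± 0.23), 0 after centring. Both shares are near that of all genes.

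A list for the retrograde pathway, which supplies α-ketoglutarate for glutamate synthesis and also lies under TOR control, held 9 tested genes: 6 target enzymes (CIT1, CIT2, ACO1, IDH1, IDH2 and DLD3) and 3 regulators (RTG2, RTG3 and MKS1), a division made after their values were seen. Late against early, 0 of the 6 enzymes and 0 of the 3 regulators were called. After centring, and likewise under quantile normalization, 1 enzyme was lower. Relative to 0 min, 5 of the 6 enzymes (0.37 to 2.51) and 1 of the 3 regulators were higher at 285 to 360 min, against 20.1% of all genes. After centring, and likewise under quantile normalization, 2 enzymes and 0 regulators were. The enzymes already stood 1.18 to 1.95 above the single 0 min sample at 15 to 90 min, where 0 were called. At 105 to 135 min against 30 to 60 min all 6 enzymes were lower, by −1.68 to −1.19 (6 after centring and 4 under quantile normalization), where 1.54% of all genes were. Among them CIT2, peroxisomal citrate synthase, differed by −1.68 ± 0.21 (limma adjusted p = 0.000121). The regulators lay between −0.27 and 0.47 in that step, and 0 of 3 were called. At 165 to 195 min against 105 to 135 min 5 of the 6 enzymes were higher, 4 after centring, against 11.5% of all genes, and 0 of the 3 regulators. In the earlier of these steps the nitrogen genes had 1 of 27 lower, and the difference between the lists was not tested.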

How the data were processed

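Total RNA of 25 samples was sequenced on an Illumina instrument, per the labels' protocols. Reads were aligned with Bowtie (version not given in the sources used here) to the R64 genome, as given in the submitters' processing notes. The authors deposited log2 RPM values, whose unlogged sum is the same in every library, although the series' design text describes values set against the first time point. The steps between low values gave the depth of each library and showed that a gene is listed only from 10 reads. 0 value columns were left unused.

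From these values limma 3.58.1 in R 4.3.3 fitted the window means over all 25 samples, after a filter of 4 values in each window of 6 and a value at 0 min. A second fit used groups of 3 times, and another a spline of time with 4 degrees of freedom. Missing values were dropped from each gene's fit. Lag-1 correlation of the residuals left by the window means was 0.10, as the median over genes with all 25 values. The log2 RPM values of consecutive libraries correlated at 0.87 to 0.99 over the same genes. The script was tested on simulated data. The count test planned for read counts was not run, because the deposited unit is log2 RPM. Every one of the 34 genes is named, with values for those called. The genes of other lists are examples of those called, and the retrograde genes were named after their values were seen. The members, lists, windows and tests were chosen with earlier results of these data known. Alternatives included other scalings, filters and weights, a correlation between samples, and leaving out each library. The closing section gives their effect.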

Additional observations from a re-analysis of the deposited data

Results flagged for a closer look

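In groups of 4 to 10 samples, a library was marked when its gap to the nearest other sample exceeded Dixon's 95% critical share of the group's range. Of 126 groups tested, 11 (8.73%) were marked, and chance marks about 1 in 20. GLT1 was marked 3 times, low at 75 min (5.036, nearest 6.137), at 120 min (5.248, nearest 6.235) and at 255 min (5.536, nearest 6.576), all in libraries with low ADA2. At 75 min DAL2 (3.286, nearest 4.37), DAL81 (4.733, nearest 5.417) and GLN1 (7.477, nearest 8.27) were also low. In the shallow 345 min library PUT1 (6.677, nearest 5.798), UGA3 (6.94, nearest 5.751) and GDH2 (8.628, nearest 8.14) were high. UGA1 was low at 270 min (7.596, nearest 8.16), and PUT4 was high at 360 min (6.613, nearest 5.407 among the 5 listed samples).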

How the results depend on the processing

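The 16 members called at 285 to 360 min relative to 15 to 90 min became 10 when samples were centred, 10 under quantile normalization and 10 when only genes with a value in all 25 samples entered, where 18 members could be tested. Relative to 0 min 19 became 11 under quantile normalization, and at 165 to 195 min relative to 105 to 135 min 13 became 8. Other settings gave 13 to 19, 13 to 22 and 10 to 15. Leaving out each library gave 16 to 17, 18 to 19 and 11 to 15, 0 to 0 for 15 to 90 min relative to 0 min, 21 to 23 for the spline, and 0 to 3 for 105 to 135 min relative to 30 to 60 min, where 1 was called: 0 without 45 or 120 min and 3 without 135 min. Direction turned for URE2 (−0.069 after centring and −0.067 under quantile normalization), PUT3 (−0.14, quantile), GDH1 (−0.19, centred), GLT1 (−0.058 centred, −0.087 quantile, −0.40 on log2(RPM + 5)) and, relative to 0 min, MEP1 (−0.032 on log2(RPM + 5)). The cause was not tested. No paired analysis was possible because each time was sampled once and the sample numbers follow accession order. The 2 planned count tests were not run, and every second sample was not used for the steps of 3 samples. Alternatives chosen after seeing the data were leaving out the 5 low-ADA2 libraries, which gave 16, 19 and 13, and leaving out each library in the times of onset. The fall in depth to 0.1466 M reads limits low late genes such as UGA4 and DAL1.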
